A study of Mus musculus with 27 samples.

Results

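The 46 genes described here encode the machinery of mitosis, in which a cell condenses its duplicated chromosomes, ties them to a spindle and shares them between its daughters. They were chosen by gene symbol from known mitotic genes. The 3 count tables held 46255 distinct gene entries between them. All 46 genes were found in each table, and all 46 passed the filter on low counts in every comparison. By role they were 9 cyclins, kinases and phosphatases of mitotic entry, 2 transcription factors, 2 proteins of chromosome structure, 4 subunits of the chromosomal passenger complex, 7 centromere and kinetochore proteins, 5 spindle checkpoint proteins, 8 spindle proteins, 5 proteins of the central spindle and cytokinesis, and 4 of the anaphase-promoting pathway and mitotic exit.

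RNA was sequenced from mouse thymus and a T cell line carrying TAL1, a transcription factor whose misplaced expression marks many T cell leukaemias, with or without AKT(E17K), in which the AKT kinase is constantly active. Thymus came from 12 C57BL/6 mice that had received bone marrow transplants, 3 in each of 4 groups: empty vector (EV, mice m311, m312 and m315), TAL1 (mice m317, m318 and m319), AKT(E17K) (AKT, mice m121, m122 and m124), and AKT(E17K) together with constitutive TAL1 (TAL1AKT, mice m116, m117 and m119). ProT cells, a mouse T cell line, gave 15 libraries, 3 at each of 0, 6, 12, 18 and 24 h of 4OH tamoxifen, which per the labels induced TAL1 by way of CreER and LoxP; every ProT library, 0 h included, came from the line with that construct. The labels name no promoter for the transgenes, no age of the mice and no share of thymus cells that came from the transplant. No ProT group without the construct took tamoxifen, so the drug, hours in culture and TAL1 cannot be told apart, and the 3 ProT libraries of a time are not said to be separate cultures, so their p-values measure a spread that may be technical.

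Entry into mitosis is driven by the kinase CDK1 bound to A-type and B-type cyclins, and exit by the anaphase-promoting complex, which marks cyclin B and securin for destruction once every chromosome is attached. Many of these genes are transcribed in a wave late in the cell cycle, held down in resting cells by the DREAM complex and switched on by B-MYB and FOXM1, through a promoter element named CHR and CCAAT boxes bound by NF-Y. In the thymus most division takes place in immature thymocytes, and mature T cells about to leave divide little. In RNA from whole tissue or culture, fewer dividing cells and less mitotic RNA in each dividing cell cannot be told apart.

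Levels are given in CPM, counts scaled to a common library total with TMM factors, and differences as log2 fold changes ± SE from edgeR's quasi-likelihood test. A gene was called higher or lower where its Benjamini-Hochberg adjusted p over all genes tested was under 0.05. Counts in genes ran from 3893990 to 5915285 in EV mice, 7155918 to 11302098 in TAL1 mice, 2073752 to 3661056 in AKT mice, 2230143 to 2792084 in TAL1AKT mice and 2660641 to 6599146 in ProT libraries. Tal1 did not follow the labels: it had 0 counts in every EV, TAL1 and TAL1AKT mouse and 7 counts in AKT mouse m121, and in ProT cells it stood at 2895 to 3098 CPM at 0 h and at 1963 to 2068 CPM at 24 h. The sources used here do not give the sequence of the transgene, which counts for mouse Tal1 may miss, so these 0 counts do not show that TAL1 was absent. Group names below are thus the labels' names, and every direction is between libraries so labelled. Of 10 markers of double-positive thymocytes, Cd4, Cd8a and Cd8b1, which define that stage, had 0 counts in all 3 ProT libraries of 0 h, and the other 7 were detected, led by Arpp21 (168 to 169 CPM) and Themis (69.4 to 78.2 CPM); all 10 were detected in EV thymus.

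Promoters were examined because most of these genes moved together in the comparisons below. The RefSeq promoter table (GRCm38.p6; 250 bases before to 50 bases after a gene's start) held 38 of the 46 genes. The CHR letters, searched as TTTGAA or TTCGAA on both strands, occurred in 29 of the 38 windows (76.3%), against 19.4% of all 27025 promoters in the table. The letters CCAAT, also on both strands, occurred in 29 (76.3%, against 37.9%), and 26 windows held both (68.4%, against 7.70%). The E-box letters of TAL1 heterodimers were not more frequent: CAGATG occurred in 5 windows (13.2%, against 17.2%), CAGCTG in 6 (15.8%, against 16.1%) and the letters GATAA of GATA factors in 5 (13.2%, against 25.8%). Matches of different motifs may share a base, as where CCAAT runs into TTTGAA. Letters in a window do not show that a factor binds there, and sites outside the windows were not searched. Whether TAL1 or any other factor acts on these promoters was not tested. 7 of these promoters, shown as the 160 bases from 130 before to 30 after the start, were picked after their motif layouts had been seen. They are those of Ccnb2 at chr9:70421525-70421684 (minus strand), Cdk1 at chr10:69352883-69353042 (minus strand), Hmmr at chr11:40733408-40733567 (minus strand), Kif11 at chr19:37376252-37376411 (plus strand), Cdc20 at chr4:118437314-118437473 (minus strand), Ccnb1 at chr13:100786457-100786616 (minus strand) and Cks2 at chr13:51645102-51645261 (plus strand), each written 5′ to 3′ along its gene. Capitals mark CHR letters (TTTGAA, or TTCAAA where the element lies on the other strand) and CCAAT boxes (CCAAT, or ATTGG on the other strand). The first 5 hold both, and Ccnb1 and Cks2 hold CCAAT boxes alone.
Ccnb2: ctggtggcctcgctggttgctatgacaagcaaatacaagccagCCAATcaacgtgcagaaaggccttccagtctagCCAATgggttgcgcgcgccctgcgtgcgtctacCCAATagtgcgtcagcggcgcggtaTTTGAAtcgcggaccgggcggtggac
Cdk1: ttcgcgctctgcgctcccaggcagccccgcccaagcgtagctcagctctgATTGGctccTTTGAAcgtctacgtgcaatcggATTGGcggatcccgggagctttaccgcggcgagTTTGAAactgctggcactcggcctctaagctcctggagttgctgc
Hmmr: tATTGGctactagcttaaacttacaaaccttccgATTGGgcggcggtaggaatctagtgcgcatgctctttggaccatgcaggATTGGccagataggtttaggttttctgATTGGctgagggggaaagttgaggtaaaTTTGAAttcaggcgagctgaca
Kif11: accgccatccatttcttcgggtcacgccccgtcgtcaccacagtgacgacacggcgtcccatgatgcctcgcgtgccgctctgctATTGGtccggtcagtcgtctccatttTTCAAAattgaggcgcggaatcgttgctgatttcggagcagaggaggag
Cdc20: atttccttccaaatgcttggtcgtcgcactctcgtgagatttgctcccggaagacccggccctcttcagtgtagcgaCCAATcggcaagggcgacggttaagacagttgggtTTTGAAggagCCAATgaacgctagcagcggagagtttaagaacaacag
Ccnb1: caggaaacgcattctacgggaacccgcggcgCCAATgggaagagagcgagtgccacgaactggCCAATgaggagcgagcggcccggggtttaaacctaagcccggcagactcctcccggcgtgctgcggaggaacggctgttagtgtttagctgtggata
Cks2: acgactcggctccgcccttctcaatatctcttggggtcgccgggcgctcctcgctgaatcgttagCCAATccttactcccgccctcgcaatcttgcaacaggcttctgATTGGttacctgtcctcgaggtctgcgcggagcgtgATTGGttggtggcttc

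Both elements were common whether or not a gene was called in the comparisons that follow. In thymus labelled TAL1, 16 of the 22 called genes with a promoter in the table held both CHR and CCAAT letters, as did 10 of the 16 not called. In ProT cells at 24 h, 22 of the 30 called genes held both, as did 4 of the 8 not called. Cks2, which stood lowest of the 46 in its 24 h fold change, had CCAAT boxes but neither TTTGAA nor TTCGAA in this window. The same held for Ccnb1, which was called higher. Other forms of the CHR element were not searched.

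Per kilobase of exon, Top2a, the topoisomerase that untangles sister chromatids, had the highest mean level of the 46 genes in each of the 4 thymus groups, at 114 ± 6.63 CPM per kb (SD, n = 3) in EV and 195 ± 20.5 in TAL1 mice. Below it in EV mice came Birc5 (56.6 ± 9.28), Cks2 (54.7 ± 3.27), Nusap1 (53.4 ± 4.34) and Ccnb2 (49.3 ± 9.62), neighbours whose ranges over mice overlapped. In ProT cells at 0 h the order began with Cks2, a small CDK-binding protein, at 107 ± 11.01 CPM per kb, ahead of Top2a at 38.1 ± 0.283. By 24 h Cks2 stood at 84.99 ± 2.97 and Top2a at 71.2 ± 1.93. Cdc25c, a phosphatase that activates CDK1, was lowest in every group, at 0.988 ± 0.0814 CPM per kb in EV mice and 0.527 ± 0.169 in ProT cells at 0 h. Summed over the 46 genes, levels were 5048 to 5381 CPM in EV mice and 2090 to 2214 CPM in ProT cells at 0 h.

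**Figure D1:**
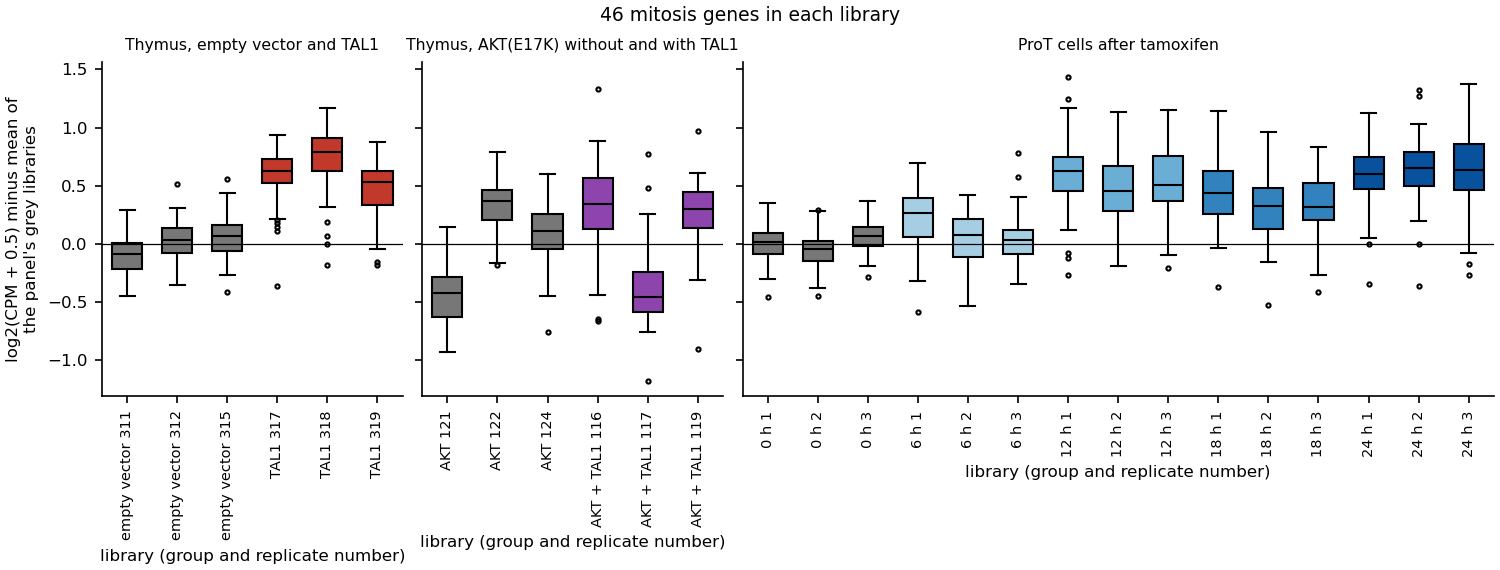
Box plots, for each of the 27 libraries, of the 46 genes' log2(CPM + 0.5) minus the mean of the grey control libraries of that panel (EV mice, AKT mice, or ProT cells at 0 h). The 3 TAL1 mice lie above the EV mice with medians of 0.53 to 0.79, the AKT and TAL1AKT mice spread over each other from -0.46 to 0.37, and ProT libraries at 12 to 24 h lie above 0 h with medians of 0.31 to 0.65.

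In thymus labelled TAL1, 27 of the 46 genes were higher than in EV thymus and none was lower. Of all 12357 genes tested, 2.16% were called higher and 2.88% lower (5.04% in all). The median log2 fold change of the 46 was 0.67, against -0.0036 over all genes tested, and 44 of 46 were positive (49.5% of all genes), all but Cdc25b and Pttg1. In 38 of the 46 every TAL1 mouse stood above every EV mouse, as did 11.7% of all genes tested. The summed level was 5048, 5331 and 5381 CPM in the EV mice and 8177, 9156 and 7595 CPM in the TAL1 mice. The calls covered every role, but unevenly, from both transcription factors, both genes of chromosome structure and 7 of 8 spindle genes to 1 of 5 checkpoint genes.

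**Figure D2:**
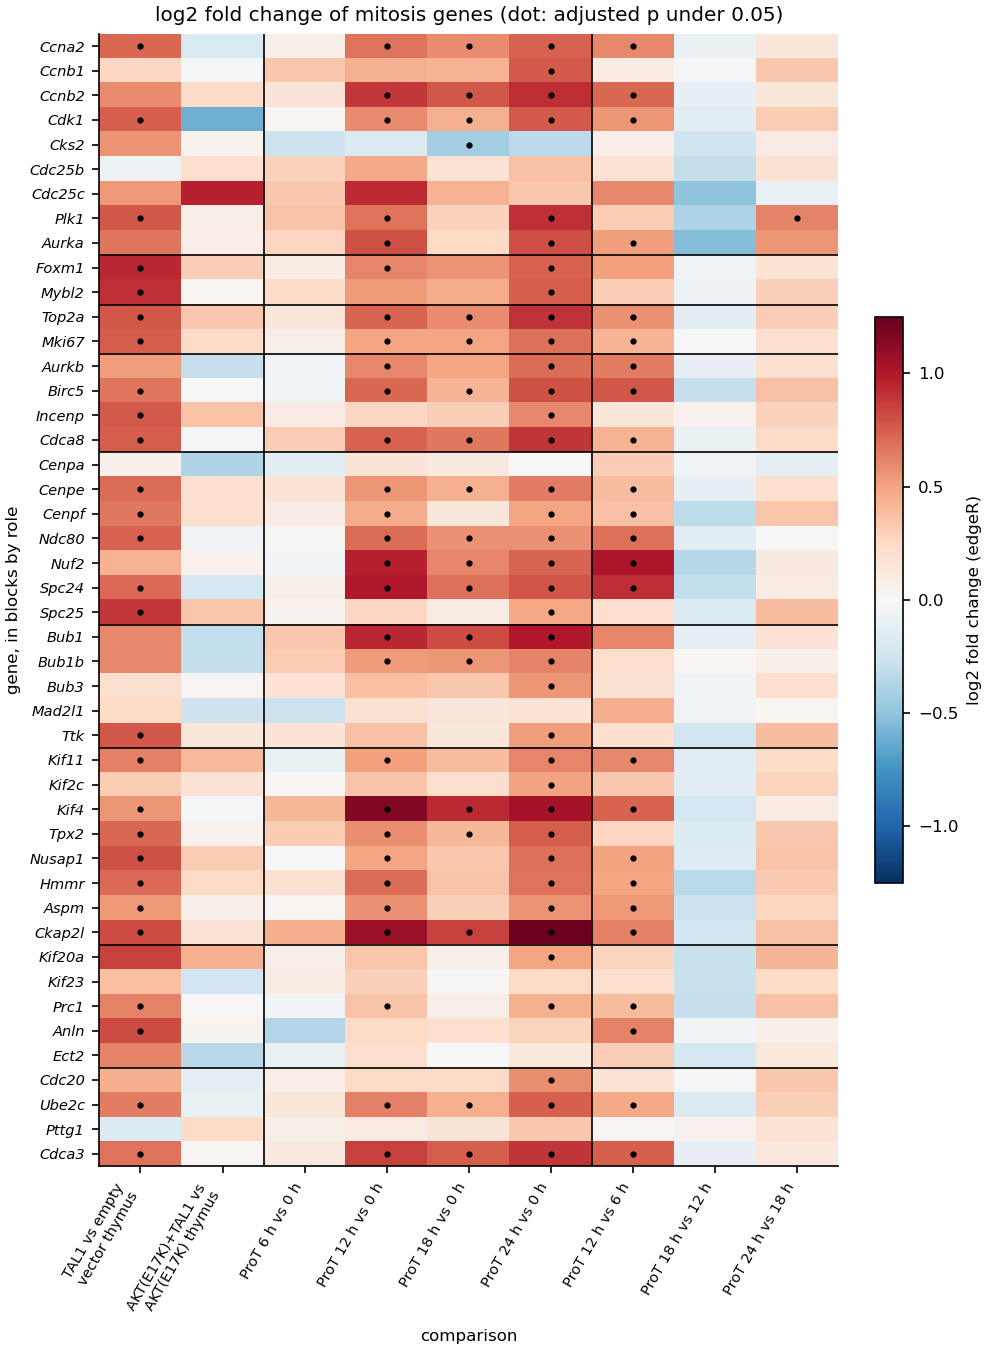
Heat map of log2 fold changes for the 46 genes (rows, ordered by role) in the comparisons of the report (columns); colour gives the log2 fold change and a dot marks an adjusted p under 0.05 by edgeR's quasi-likelihood test. Dots fill much of the TAL1 thymus column (27 genes) and the ProT columns at 12 h (28) and 24 h (37), and are absent from the TAL1AKT, 6 h and 18 against 12 h columns.

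The 2 transcription factors of the programme were both called and led the list. Foxm1 (chromosome 6, 128362967 to 128376146, GRCm38), which drives late cell-cycle transcription, was at 33.6, 28.8 and 32.2 CPM in EV mice and 60.2, 64.9 and 57.2 CPM in TAL1 mice. The groups did not overlap, and its log2 fold change was 0.94 ± 0.15 (adjusted p = 0.00314), the largest of the 46. Mybl2, which encodes B-MYB, was at 14.3, 17.7 and 14.3 CPM in EV mice and 25.4, 32.7 and 28.6 CPM in TAL1 mice (0.91 ± 0.21, adjusted p = 0.0247). Its TAL1 mice were all above its EV mice, but the call was lost without EV mouse m311, m312 or m315 or TAL1 mouse m318 or m319 (adjusted p = 0.0504 to 0.101).

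Of the 9 entry genes, 3 were higher. Plk1 (chromosome 7, 122159439 to 122169873), the Polo kinase that helps activate CDK1 and builds spindle poles, was at 83.8, 85.1 and 95.1 CPM in EV mice and 155, 160.02 and 139 CPM in TAL1 mice, with no overlap (0.78 ± 0.11, adjusted p = 0.002). Cdk1 (chromosome 10, 69335146 to 69352938), the kinase of mitotic entry, was at 77.8, 108 and 116.1 CPM in EV mice and 191, 149 and 167 CPM in TAL1 mice (0.75 ± 0.15, adjusted p = 0.0112). The call was lost without TAL1 mouse m317, the highest of the 6 (adjusted p = 0.0664). Ccna2, cyclin A2, was called at 0.72 ± 0.17 (adjusted p = 0.0246), but not without EV mouse m312 or TAL1 mouse m317, m318 or m319 (adjusted p = 0.0565 to 0.0804). The mitotic cyclins Ccnb1 and Ccnb2 were not called. Ccnb1 was at 32.6, 34.98 and 53.7 CPM in EV mice and 49.9, 54.99 and 40.5 CPM in TAL1 mice, with overlap (0.26 ± 0.20, adjusted p = 0.592), while Ccnb2 did not overlap (0.60 ± 0.16, adjusted p = 0.0568). Aurka, the kinase of spindle poles, and Cks2 also missed the threshold at 0.67 (adjusted p = 0.0606) and 0.56 (adjusted p = 0.0853). The phosphatase genes Cdc25b and Cdc25c were at -0.066 and 0.54 (adjusted p = 0.883 and 0.538).

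Both genes of chromosome structure were higher. Top2a (chromosome 11, 98992943 to 99024189) was at 1076, 1049 and 962 CPM in EV mice and 1670.00, 1974 and 1640.3 CPM in TAL1 mice (0.78 ± 0.089, adjusted p = 0.000664). Mki67 (chromosome 7, 135689784 to 135716361), which coats mitotic chromosomes and marks dividing cells, was at 479.9, 494 and 456 CPM in EV mice and 816, 883 and 724 CPM in TAL1 mice (0.76 ± 0.091, adjusted p = 0.000664). In each, the lowest TAL1 mouse stood well above the highest EV mouse. In the chromosomal passenger complex, which corrects wrong attachments, 3 of 4 genes were higher: Incenp (0.76 ± 0.11), Cdca8, which encodes borealin (0.76 ± 0.13), and Birc5, which encodes survivin (0.67 ± 0.12), with adjusted p of 0.00179, 0.00586 and 0.00608. The last, the kinase gene Aurkb, was at 19.8, 23.2 and 38.5 CPM in EV mice and 37.03, 46.9 and 33.4 CPM in TAL1 mice. EV mouse m315 lay above 2 of the 3 TAL1 mice, and the difference was not called (0.53 ± 0.25, adjusted p = 0.292).

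Of the 7 centromere and kinetochore genes, 5 were higher. Spc25, a subunit of the NDC80 complex that grips microtubules, was at 59.7, 62.8 and 62.5 CPM in EV mice and 108, 139.5 and 93.4 CPM in TAL1 mice, with no overlap (0.88 ± 0.15, adjusted p = 0.00498). Its partners Ndc80 (0.74 ± 0.14, adjusted p = 0.00819) and Spc24 (0.71 ± 0.17, adjusted p = 0.0301) were also called, the latter lost without any 1 of the 6 libraries (adjusted p = 0.0576 to 0.142). The remaining subunit, Nuf2, was not called at 0.43 ± 0.21 (adjusted p = 0.309). The motor Cenpe and the kinetochore protein Cenpf were higher by 0.70 ± 0.11 and 0.66 ± 0.11 (adjusted p = 0.00263 and 0.00498). Cenpa, the histone variant that marks centromeres, differed from them: it was at 88.7, 97.5 and 128 CPM in EV mice and 119.7, 103 and 105 CPM in TAL1 mice, with TAL1 mice inside the EV range (0.067 ± 0.14, adjusted p = 0.874, 95% interval -0.24 to 0.37).

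Among the 5 checkpoint genes, only Ttk, the MPS1 kinase that starts the checkpoint signal, was called, at 55.2, 65.6 and 45.4 CPM in EV mice and 86.8, 114 and 84.6 CPM in TAL1 mice (0.78 ± 0.16, adjusted p = 0.0139). That call was lost without EV mouse m315 (adjusted p = 0.0802) or TAL1 mouse m318 (adjusted p = 0.0745). Bub1b, which encodes BUBR1, was at 62.9, 40.6 and 55.5 CPM in EV mice and 81.8, 89.6 and 70.7 CPM in TAL1 mice; the groups did not overlap, yet it missed the threshold (0.60 ± 0.17, adjusted p = 0.059). Bub1, Bub3 and Mad2l1 were not called at 0.60, 0.20 and 0.25 (adjusted p = 0.135, 0.309 and 0.571).

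Of the 8 spindle genes, 7 were higher. Ckap2l (chromosome 2, 129268210 to 129297212), a spindle and centrosome protein of dividing precursors, was at 55.9, 66.4 and 65.9 CPM in EV mice and 109.7, 121.1 and 101 CPM in TAL1 mice. Nusap1, which bundles microtubules near chromosomes, was at 201, 214 and 236 CPM in EV mice and 345, 447 and 335 CPM in TAL1 mice. Neither overlapped (Ckap2l 0.82 ± 0.13, adjusted p = 0.0029; Nusap1 0.79 ± 0.12, adjusted p = 0.00263). The nucleation factor Tpx2 (0.72 ± 0.11), the motor Kif11 that pushes poles apart (0.63 ± 0.12), Hmmr (0.70 ± 0.17), the pole protein Aspm (0.54 ± 0.11) and the chromokinesin Kif4 (0.56 ± 0.14) were also called, with adjusted p of 0.00263, 0.00766, 0.0271, 0.0131 and 0.0415. The last 3 were less stable. Kif4 lost its call without any 1 of the 6 libraries (adjusted p = 0.0699 to 0.167), Aspm without EV mouse m312 or m315 or TAL1 mouse m317 or m318 (0.0502 to 0.0687), and Hmmr without EV mouse m311 or m312 or TAL1 mouse m318 or m319 (0.0523 to 0.128). Kif2c, a motor that takes microtubules apart, was not called (0.31 ± 0.22, adjusted p = 0.541).

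In cytokinesis 2 of 5 genes were higher. Anln, the anillin of the contractile ring, was at 21.8, 28.04 and 18.7 CPM in EV mice and 39.2, 40.7 and 40.4 CPM in TAL1 mice (0.82 ± 0.19, adjusted p = 0.0268). It did not overlap, but its call was lost without EV mouse m311 or m315 or TAL1 mouse m317, m318 or m319 (adjusted p = 0.062 to 0.125). Prc1, the bundler of the central spindle, had 0.62 ± 0.11 (adjusted p = 0.00528). Kif20a, Kif23 and Ect2, 2 motors and the activator of RhoA, were not called at 0.86, 0.38 and 0.62 (adjusted p = 0.235, 0.186 and 0.138). Kif20a rested on 22 to 30 counts in each EV mouse. Of the 4 exit genes, Ube2c, the ubiquitin-conjugating partner of the anaphase-promoting complex, and Cdca3 were higher (0.64 ± 0.11 and 0.68 ± 0.14, adjusted p = 0.00512 and 0.013), Cdca3 losing its call without EV mouse m312 (0.0716) or TAL1 mouse m318 (0.0653). Cdc20, the activator of that complex, was at 24.5, 33.2 and 38.7 CPM in EV mice and 47.9, 39.5 and 44.2 CPM in TAL1 mice; its groups did not overlap, but it was not called (0.45 ± 0.19, adjusted p = 0.239). Pttg1, which encodes securin, had the most negative value of the 46, -0.17 ± 0.18 (adjusted p = 0.707), with EV and TAL1 mice overlapping.

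**Figure D3:**
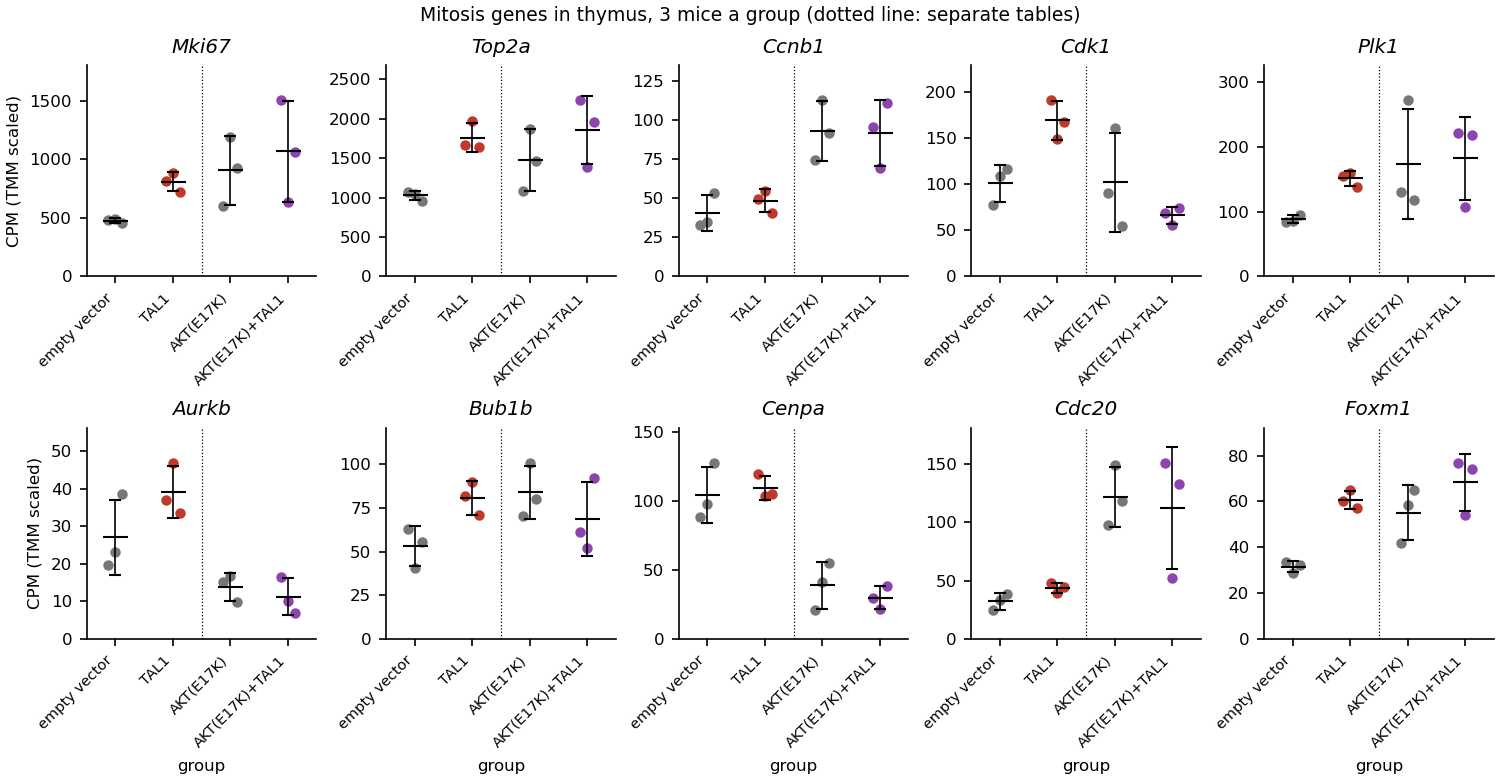
CPM of 10 genes in each of the 12 thymus libraries (points), with the group mean and SD (bar and whiskers), in groups EV, TAL1, AKT and TAL1AKT; each panel has its own linear axis, and AKT and TAL1AKT come from a separate table. For Foxm1, Plk1, Top2a and Mki67 all 3 TAL1 mice lie above all 3 EV mice, Cenpa overlaps, and in every panel the AKT and TAL1AKT points overlap.

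With 1 mouse left out, 18 to 23 of the 46 genes were called, 18 to 22 of them from the 27, and 17 genes kept their call in all 6 of these fits: the 10 that did not are named above with the mice concerned. The median log2 fold change stayed between 0.57 and 0.73. Markers of T cell maturity differed between the same groups. Of the 9 mature T cell markers tested, 7 were lower and none higher in TAL1 mice, and their summed level was 1068 to 1162 CPM in EV and 370 to 545 CPM in TAL1 mice; S1pr1 and Ccr7 differed most (-3.23 and -2.46). Of 10 double-positive thymocyte markers, 4 were higher and none lower (summed level 7890 to 9205 CPM in EV and 10410 to 11720 CPM in TAL1). Myeloid markers, none of which was called, summed to 13.6, 379.7 and 16.5 CPM in TAL1 mice m317, m318 and m319 and to 23.1 to 34.5 CPM in EV mice. Stromal markers summed to 151 to 204 CPM in EV and 112 to 120.5 CPM in TAL1 mice, nearly all of it Pecam1, which was lower (-0.60, adjusted p = 0.0112), while the epithelial genes Krt5 and Foxn1 were at 0 counts in all 6 mice. The part of these markers' cells in the mitotic levels was not tested.

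In thymus with AKT(E17K), none of the 46 genes was called between TAL1AKT and AKT mice, and none had an unadjusted p under 0.05; of all 9782 genes tested, 0% were called, 7.25% (709 genes) had an unadjusted p under 0.05, and DESeq2 called 0 of the 46 genes too. The median log2 fold change of the 46 was 0.044 (-0.015 over all genes tested), with 29 positive (48.7% of all genes) and 17 negative. Only Cdc25c separated the groups, at 2.24, 6.32 and 7.20 CPM in AKT and 12.7, 8.47 and 9.79 CPM in TAL1AKT mice, a separation that 6.18% of all genes showed upwards and 5.72% downwards. Cdc25c also had the smallest p of the 46 (0.97 ± 0.55, adjusted p = 0.728), and it rested on 7 to 36 counts per mouse. Its 95% interval ran from -0.27 to 2.21.

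The next smallest p values belonged to Cdk1, Kif20a and Spc25. Cdk1 was at 90.6, 161 and 54.5 CPM in AKT and 68.3, 56.1 and 74.6 CPM in TAL1AKT mice (-0.61 ± 0.36, adjusted p = 0.736). The AKT mice lay on both sides of the TAL1AKT range. Kif20a was at 22.4, 36.3 and 25.2 and 40.5, 32.8 and 40.1 CPM (0.44 ± 0.29, adjusted p = 0.755), and Spc25 at 105, 135 and 155 and 206, 119.7 and 178 CPM (0.35 ± 0.26, adjusted p = 0.786). Both overlapped. Top2a was at 1090.3, 1869 and 1470.2 CPM in AKT and 2234, 1386 and 1963 CPM in TAL1AKT mice, and Mki67 at 599, 1189 and 928 and 1503, 634 and 1064 CPM. Their log2 fold changes of 0.33 ± 0.29 and 0.24 ± 0.36 had 95% intervals of -0.33 to 0.99 and -0.58 to 1.05, wide enough to hold both 0 and the value seen between TAL1 and EV mice for either gene. The interval was -0.79 to 0.93 for Plk1, -0.28 to 0.89 for Foxm1, -0.59 to 0.56 for Ccnb1, -0.91 to 0.33 for Bub1b, -0.94 to 0.70 for Cdc20, -1.27 to 0.71 for Aurkb and -1.245 to 0.49 for Cenpa, around log2 fold changes of 0.072, 0.31, -0.014, -0.29, -0.12, -0.28 and -0.38 (adjusted p = 0.822 to 0.992). All of these held 0, but among the intervals given here those of Foxm1 and Bub1b ended below the values seen between TAL1 and EV mice. Cdk1, whose interval is not given here, was at -0.61 ± 0.36, against 0.75 between TAL1 and EV mice. Foxm1, Bub1b and Cdk1 were not called in the contrast of the TAL1 effects over all 12 mice below.

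Within each of these groups the 46 genes were high or low together by mouse. AKT mouse m121 lay below the mean of its group's other mice in nearly all genes (3 of 46 above, median log2 difference -0.64) and AKT mouse m122 above it in 42 (0.56). TAL1AKT mouse m117 was above in 1 gene (-0.68), and mice m116 and m119 in 41 and 39 (0.44 and 0.28). Summed levels were 4842, 8626 and 7110 CPM in AKT mice m121, m122 and m124 and 9274, 5278 and 8431 CPM in TAL1AKT mice m116, m117 and m119, so the range within either group exceeded the difference between their means. In AKT mouse m121 markers of other cell types were also highest: myeloid markers summed to 940, 81.1 and 201 CPM in mice m121, m122 and m124, erythroid markers to 939, 126 and 593 CPM and stromal markers to 395, 50.6 and 127 CPM. TAL1AKT mouse m117 had the most early progenitor marker RNA of its group, 1366 CPM against 526 and 319.2 CPM in mice m116 and m119, and the most double-positive marker RNA, 5728 CPM against 3895 and 3728 CPM. Between the groups, early progenitor markers summed to 61.7 to 116.9 CPM in AKT and 319.2 to 1366 CPM in TAL1AKT mice. Mature T cell markers summed to 26.3 to 47.3 and 78.3 to 142.9 CPM. Of the 6 tested, 5 had an unadjusted p under 0.05, all higher (7.25% of all genes in either direction). B cell markers summed to 16.5 to 39.1 and 1.4 to 11.3 CPM. No marker on these lists was called. Sums of double-positive, myeloid, erythroid and stromal markers overlapped. Their part in the mitotic levels was not tested. Leaving out 1 mouse at a time called none of the 46 and put their median between -0.11 and 0.25.

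The TAL1 effects with and without AKT(E17K) were set against each other over the 12 mice. None of the 46 was called, against 0.164% of the 10947 genes tested (all of them higher), and 8 of 46 had an unadjusted p under 0.05, against 10.9% of all genes. All 8 differences were negative, the TAL1 effect being the smaller one with AKT(E17K): Cdk1 (-1.33 ± 0.43, adjusted p = 0.278), Ect2 (-0.96), Spc24 (-0.90), Ccna2 (-0.88), Bub1b (-0.87), Mybl2 (-0.86), Ube2c (-0.71) and Foxm1 (-0.61). In all, 43 of the 46 differences were negative, with a median of -0.55, against -0.012 over all genes tested. The 46 genes were high or low together by mouse, so their differences are not independent. Without AKT mouse m124, the lowest of its group for Cdk1, the difference in Cdk1 was called (-1.635, adjusted p = 0.0314). Further genes had adjusted p of 0.636 for Top2a (-0.42 ± 0.30), 0.674 for Mki67 (-0.50 ± 0.39) and 0.596 for Plk1 (-0.68 ± 0.43). The AKT groups' counts came in a table of their own. It held 22906 genes, against 46078 in each of the EV and ProT tables, and the sources used here do not say why. For Aurkb, Cdc20, Cenpa and Ccnb1 the differences were -0.77, -0.54, -0.43 and -0.25 (adjusted p = 0.603, 0.683, 0.739 and 0.827). Of the 9 mature T cell markers tested in this contrast, 4 were called, all higher. Their part in the mitotic differences was not tested.

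In ProT cells the mitotic genes were not called at 6 h of tamoxifen, and many were higher from 12 h on. The numbers higher than at 0 h were 0 of 46 at 6 h, 28 at 12 h, 18 at 18 h and 37 at 24 h, against 0%, 6.33%, 4.89% and 9.43% of the 13610 genes tested. Of the 46, 1 (Cks2) was lower at 18 h (3.92% of all genes lower, 8.82% called in all), and none at 12 h (5.69%) or 24 h (9.30%). Median log2 fold changes over the 46 were 0.096, 0.54, 0.40 and 0.67, against 0.0011, -0.0062, -0.0098 and -0.015 over all genes tested. Positive values numbered 35, 45, 45 and 44 of 46 (50.2%, 49.2%, 48.8% and 48.6% of all genes). These 4 comparisons share the 3 libraries of 0 h. Over all times together 35 of 46 were called, against 18.0% of all genes. Summed levels were 2166, 2090.3 and 2214 CPM (0 h), 2525, 2198 and 2203 CPM (6 h), 3337, 2998 and 3059 CPM (12 h), 2991, 2730.0 and 2759.8 CPM (18 h), and 3323, 3396 and 3464 CPM (24 h). By gene, 18 were called higher at all 3 late times, 10 at 2 of them, 9 at 1 and 9 at none. The mean was highest at 24 h in 33 genes and at 12 h in 12, and in 41 genes the 18 h mean lay below both the 12 h and the 24 h mean.

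At 6 h, 6 of the 46 had an unadjusted p under 0.05 (5.39% of all genes; DESeq2 also called 0 of the 46): Ckap2l (0.45), Plk1 (0.35), Ccnb1 (0.34), Tpx2 (0.31), Cdca8 (0.31) and, in the other direction, Cks2 (-0.26), all with an adjusted p of 0.908. Groups were apart upwards in 5 genes (4.75% of all genes) and downwards in 2, Cenpa and Mad2l1 (4.64%). Library 1 of 6 h stood apart from the other 2, with a median log2 difference of 0.24 and 36 of 46 genes above them. Log2 fold changes at 6 h were 0.15 for Top2a, 0.071 for Mki67, 0.036 for Cdk1, -0.045 for Aurkb, 0.31 for Bub1b, -0.15 for Cenpa, 0.082 for Cdc20 and 0.10 for Foxm1, with adjusted p from 0.916 to 0.982.

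**Figure D4:**
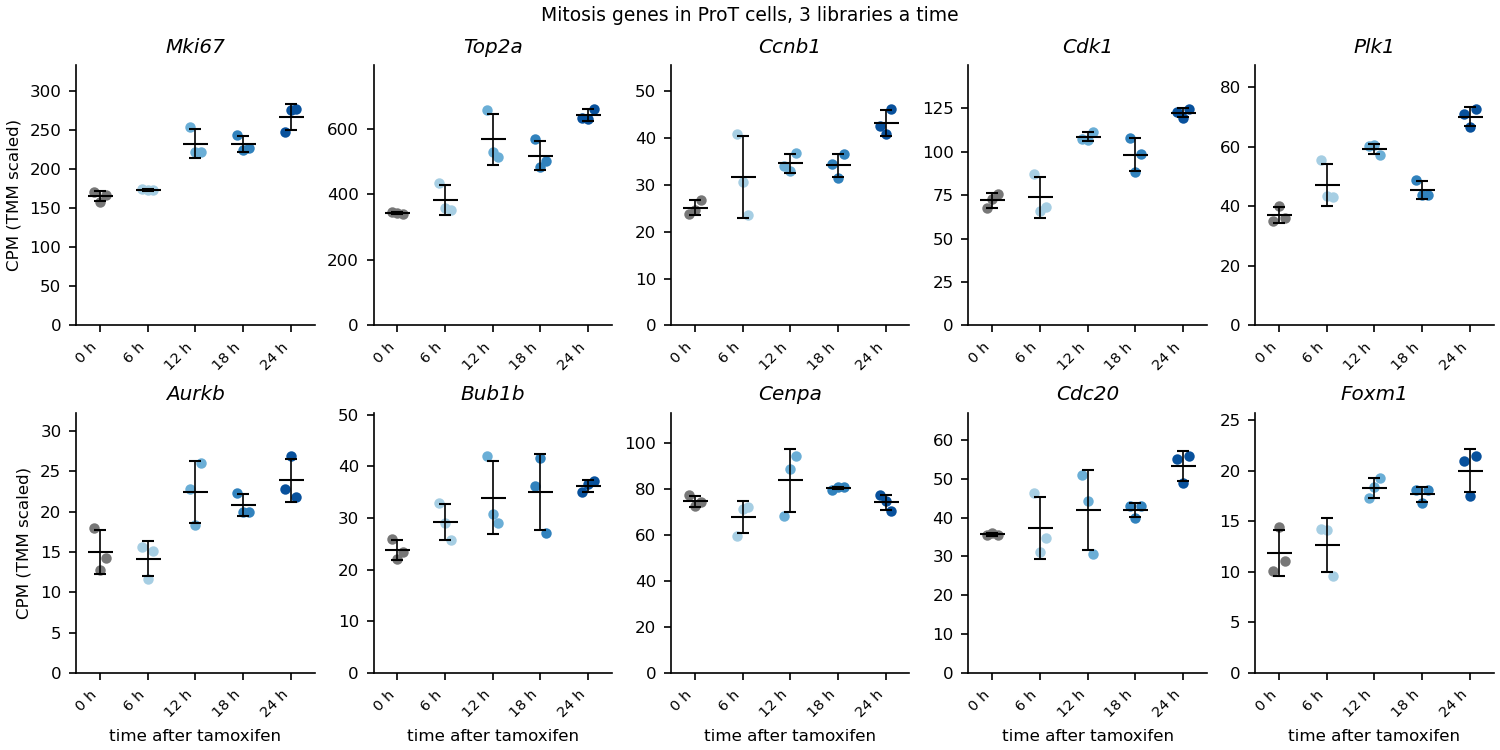
CPM of 10 genes in each of the 15 ProT libraries (points) against hours of 4OH tamoxifen, with the mean and SD at each time; each panel has its own linear axis. Top2a, Mki67, Cdk1 and Plk1 lie higher at 24 h than at 0 h with no overlap, Plk1 dips at 18 h, and Cenpa overlaps at 24 h.

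All 8 spindle genes were higher at 24 h. Ckap2l was at 19.7, 25.2 and 29.01 CPM (0 h), 38.2, 28.3 and 36.5 CPM (6 h), 55.2, 50.9 and 54.5 CPM (12 h), 53.1, 43.4 and 40.7 CPM (18 h) and 53.7, 59.6 and 63.9 CPM (24 h). All libraries from 12 h on were above all of 0 h, with log2 fold changes of 1.08 ± 0.15 at 12 h, 0.85 ± 0.15 at 18 h and 1.22 ± 0.15 at 24 h (adjusted p = 2.07e-05, 0.000658 and 4.63e-06). The 24 h value was the largest of the 46. Kif4 (chromosome X, 100625737 to 100727214), which shapes chromosome arms, was at 8.37, 9.35 and 13.2 CPM (0 h), 28.2, 22.8 and 20.5 CPM (12 h), 22.97, 20.2 and 18.4 CPM (18 h) and 20.1, 26.1 and 19.7 CPM (24 h), again with no overlap with 0 h. Its log2 fold changes were 1.16 ± 0.20, 0.93 ± 0.20 and 1.04 ± 0.20 (adjusted p = 0.000258, 0.00411 and 0.00068). The other 6 were higher at 24 h by 0.75 (Tpx2), 0.69 (Nusap1), 0.68 (Hmmr), 0.61 (Kif11), 0.56 (Aspm) and 0.50 (Kif2c), with adjusted p of 0.000208, 0.000282, 0.000648, 0.00409, 0.00117 and 0.0447. Kif2c lost its call without any 1 of the 6 libraries (0.0539 to 0.165) and Kif11 without 0 h library 2 (0.0524). At 12 h 7 of 8 were higher, all but Kif2c. Kif11 was called there too (0.52 ± 0.14, adjusted p = 0.0191), but not without 0 h library 2 (0.166) or 12 h library 1 (0.0556).

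Of the 9 entry genes, 5 were higher at 12 h, 3 at 18 h and 6 at 24 h. Ccnb2 (chromosome 9, 70407692 to 70421547), a B-type cyclin, was at 26.4, 27.8 and 31.7 CPM (0 h), 35.00, 31.9 and 30.04 CPM (6 h), 50.1, 52.9 and 57.4 CPM (12 h), 52.7, 48.1 and 48.5 CPM (18 h) and 50.9, 55.9 and 57.9 CPM (24 h), with libraries of 12, 18 and 24 h all above 0 h. Its log2 fold changes were 0.88 ± 0.12, 0.78 ± 0.13 and 0.92 ± 0.12 (adjusted p = 2.91e-05, 0.000273 and 1.39e-05). Its relative Ccnb1 was at 23.8, 24.7 and 26.9 CPM (0 h), 33.97, 32.9 and 36.9 CPM (12 h), 34.3, 31.6 and 36.5 CPM (18 h) and 42.5, 40.9 and 46.3 CPM (24 h). It was called only at 24 h (0.77 ± 0.15, adjusted p = 0.00102); at 12 and 18 h its groups did not overlap with 0 h but missed the threshold (0.45 and 0.44, adjusted p = 0.0596 and 0.0808). Cdk1 rose by 0.59 ± 0.12 at 12 h and 0.76 ± 0.12 at 24 h (adjusted p = 0.00117 and 5.87e-05). Its levels were 67.3, 72.8 and 75.5 CPM (0 h), 108, 107 and 111 CPM (12 h) and 123, 119.5 and 125 CPM (24 h). Ccna2 rose by 0.68 ± 0.15 and 0.73 ± 0.14 (adjusted p = 0.00269 and 0.000893).

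Plk1 and Aurka, the kinases of centrosome maturation, were called at 12 and 24 h and not at 18 h. Plk1 was at 35.1, 40.2 and 36.01 CPM (0 h), 55.4, 43.4 and 42.95 CPM (6 h), 60.2, 60.4 and 57.4 CPM (12 h), 48.9, 43.9 and 43.6 CPM (18 h) and 70.8, 66.7 and 72.8 CPM (24 h). The 18 h libraries lay between the 0 h and the 12 h libraries without touching either group. Its log2 fold changes against 0 h were 0.68 ± 0.12, 0.29 ± 0.13 and 0.91 ± 0.12 (adjusted p = 0.000539, 0.149 and 1.32e-05). Aurka was at 12.6, 13.3 and 13.2 CPM (0 h), 25.7, 24.02 and 17.8 CPM (12 h), 15.6, 13.8 and 17.04 CPM (18 h) and 26.2, 20.9 and 21.2 CPM (24 h), with 0.79 ± 0.18, 0.25 ± 0.20 and 0.80 ± 0.19 (adjusted p = 0.00511, 0.46 and 0.0034). Cks2 went the other way. It was at 81.99, 73.7 and 66.8 CPM (0 h), 48.97, 64.3 and 71.7 CPM (6 h), 61.1, 64.6 and 69.1 CPM (12 h), 57.1, 51.3 and 55.3 CPM (18 h) and 58.1, 57.2 and 61.1 CPM (24 h), so that every library of 18 and 24 h was below every library of 0 h. It was called lower at 18 h (-0.43 ± 0.13, adjusted p = 0.0317), a call lost without 0 h library 1 or 2 or 18 h library 1, 2 or 3 (adjusted p = 0.0716 to 0.149), and not at 24 h (-0.33 ± 0.12, adjusted p = 0.0667). A fit of only 0 and 24 h did call Cks2 lower (-0.32, adjusted p = 0.0146). The phosphatase genes Cdc25b and Cdc25c were called at no time; Cdc25c rested on 6 to 34 counts per library.

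Top2a was at 346, 344 and 341 CPM (0 h), 435, 358 and 353 CPM (6 h), 658, 529.8 and 515 CPM (12 h), 568, 483 and 501 CPM (18 h) and 633, 630.3 and 662 CPM (24 h). From 12 h on it was above 0 h in every library, with 0.72 ± 0.12, 0.59 ± 0.12 and 0.90 ± 0.12 (adjusted p = 0.000162, 0.00215 and 1.13e-05). Mki67 followed, at 171, 158 and 166 CPM (0 h) and 248, 275 and 277 CPM (24 h), with 0.50, 0.49 and 0.69 (adjusted p = 0.00195, 0.00325 and 4.79e-05). The transcription factors were lower in level and less stable. Foxm1 was at 10.04, 14.5 and 11.1 CPM (0 h), 17.3, 18.4 and 19.3 CPM (12 h), 18.1, 16.8 and 18.1 CPM (18 h) and 21.01, 17.5 and 21.4 CPM (24 h), with 0.61 ± 0.19, 0.57 ± 0.19 and 0.74 ± 0.19 (adjusted p = 0.031, 0.0599 and 0.00657). Its 12 h call was lost without 0 h library 1 or 3 or 12 h library 2 or 3 (adjusted p = 0.0659 to 0.115). Mybl2 was called at 24 h alone (0.76 ± 0.20, adjusted p = 0.0102), and not without 0 h library 1 (0.051).

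All 4 passenger genes were higher at 24 h. Cdca8 was at 47.3, 39.7 and 40.1 CPM (0 h), 76.1, 62.7 and 71.9 CPM (12 h), 65.5, 64.1 and 69.2 CPM (18 h) and 78.2, 72.5 and 84.3 CPM (24 h), with no overlap from 12 h on (0.74 ± 0.14, 0.66 ± 0.14 and 0.90 ± 0.14, adjusted p = 0.000645, 0.00321 and 5.87e-05). Birc5 had 0.72, 0.43 and 0.80 (adjusted p = 0.000283, 0.0291 and 6.67e-05), and Incenp was called at 24 h alone (0.60 ± 0.12, adjusted p = 0.00102). Aurkb, at 17.99, 12.8 and 14.2 CPM (0 h) and 22.8, 26.9 and 21.9 CPM (24 h), was called at 12 h (0.60 ± 0.18, adjusted p = 0.0277) and 24 h (0.70 ± 0.18, adjusted p = 0.00695). The 24 h call was lost without 0 h library 2 (0.0508) and the 12 h call without 0 h library 2 or 3 or 12 h library 1 or 3 (0.0563 to 0.14).

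Of the 7 centromere and kinetochore genes, 5 were higher at 12 h, 4 at 18 h and 6 at 24 h. Of the 4 subunits of the NDC80 complex, Spc24, Nuf2 and Ndc80 (0.70, adjusted p = 0.00179) were called at 12 h, and Spc25 was not (0.26, adjusted p = 0.165). Spc24 was at 7.95, 13.6 and 12.7 CPM (0 h), 24.2, 23.9 and 22.3 CPM (12 h), 18.5, 18.98 and 19.3 CPM (18 h) and 19.01, 19.9 and 22.3 CPM (24 h). Nuf2 was at 11.3, 12.2 and 12.7 CPM (0 h), 19.9, 26.01 and 25.8 CPM (12 h), 22.3, 16.3 and 17.04 CPM (18 h) and 20.2, 21.2 and 18.7 CPM (24 h). Neither overlapped with 0 h. Spc24 had 0.998 ± 0.17, 0.69 ± 0.18 and 0.79 ± 0.18 (adjusted p = 0.000332, 0.0156 and 0.00249), and Nuf2 0.97 ± 0.19, 0.61 ± 0.20 and 0.72 ± 0.19 (adjusted p = 0.00105, 0.0489 and 0.00924). Both were highest at 12 h by their means. Ndc80 was higher by 0.57 at 24 h (adjusted p = 0.00742; 0.0585 without 0 h library 3), Cenpe by 0.65 (0.000177), Cenpf by 0.49 (0.00203) and Spc25 by 0.48 (0.00692). Cenpa was again apart from them, at 77.4, 72.6 and 74.6 CPM (0 h) and 77.4, 74.7 and 70.7 CPM (24 h) (-0.0072 ± 0.12, adjusted p = 0.974, 95% interval -0.25 to 0.24); at 12 h it had 0.16 (adjusted p = 0.39).

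In the checkpoint, 2 of 5 genes were higher at 12 h and 4 at 24 h. Bub1, the kinase that recruits the others to kinetochores, was at 8.78, 9.35 and 6.62 CPM (0 h), 20.03, 12.7 and 13.5 CPM (12 h), 15.8, 15.04 and 12.2 CPM (18 h) and 15.8, 17.2 and 15.3 CPM (24 h), with no overlap with 0 h. Its log2 fold changes were 0.94 ± 0.24, 0.82 ± 0.25 and 0.997 ± 0.24 (adjusted p = 0.0107, 0.038 and 0.00511). Its 24 h call held without any 1 library, while the 12 h call was lost without 0 h library 3 (0.081) or 12 h library 1 (0.0719). Bub1b was at 25.9, 22.1 and 23.4 CPM (0 h) and 34.96, 36.7 and 37.1 CPM (24 h) (0.62 ± 0.16, adjusted p = 0.00996), lost without 0 h library 2 (0.0532). At 12 h it had 0.53 ± 0.16 (adjusted p = 0.0344), lost without 0 h library 1, 2 or 3 or 12 h library 1 (0.0564 to 0.191). Bub3 (0.55, adjusted p = 0.00695) and Ttk (0.52, 0.0154) were called at 24 h alone; Bub3 lost its call without 0 h library 1 (0.0539) and Ttk without 0 h library 1 or 2 or 24 h library 2 (0.0504 to 0.0956). Mad2l1, the effector of the checkpoint, was called at no time (0.17 at 24 h, adjusted p = 0.519).

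Of the 5 cytokinesis genes, 1 was called at 12 h, none at 18 h and 2 at 24 h. Prc1 was at 58.98, 52.4 and 56.6 CPM (0 h), 73.5, 67.00 and 75.00 CPM (12 h), 59.6, 54.98 and 61.9 CPM (18 h) and 78.7, 75.2 and 74.3 CPM (24 h). It was called at 12 h (0.36 ± 0.11, adjusted p = 0.0289; lost without 0 h library 2 or 3 or 12 h library 1 or 3, 0.0589 to 0.131) and at 24 h (0.44 ± 0.11, adjusted p = 0.00515), with 0.076 between them at 18 h. Kif20a was called at 24 h (0.50 ± 0.14, adjusted p = 0.0137), though not without 0 h library 2 (0.127) or 24 h library 1 (0.0609). Kif23, Anln and Ect2 were not called at 24 h (0.25, 0.28 and 0.13, adjusted p = 0.131, 0.35 and 0.676). Among exit genes, Cdca3, a factor in the destruction of the CDK1 inhibitor WEE1, was at 22.6, 20.4 and 24.9 CPM (0 h), 39.9, 43.9 and 40.2 CPM (12 h), 37.5, 40.9 and 37.6 CPM (18 h) and 44.9, 39.7 and 42.2 CPM (24 h). It was above 0 h in all late libraries, with 0.86 ± 0.13, 0.76 ± 0.13 and 0.89 ± 0.13 (adjusted p = 8.25e-05, 0.000688 and 4.74e-05). Ube2c was higher at 24 h by 0.75 ± 0.14 (adjusted p = 0.000559). Cdc20, at 35.6, 36.00 and 35.4 CPM (0 h) and 55.2, 48.8 and 55.8 CPM (24 h), was called at 24 h alone (0.58 ± 0.16, adjusted p = 0.0104; 0.25 and 0.24 at 12 and 18 h). Pttg1 was called at no time.

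Counts of calls at 24 h were 31 to 36 without any 1 of the 6 libraries, and 28 of the 37 genes kept their call throughout; at 12 h 22 of 28 did. The 18 h calls were the least stable: 7 of 19 held in every such fit (Kif4, Ckap2l, Ccnb2, Cdca3, Cdca8, Top2a and Mki67), and the count fell to 11 without 0 h library 1, to 9 without 0 h library 2 and to 9 without 18 h library 1. Of those lost, Nuf2 was lost without any 1 of the 6 libraries (adjusted p = 0.0545 to 0.252) and Bub1 without 0 h library 1, 2 or 3 or 18 h library 1 or 2 (0.0683 to 0.166). Birc5 was lost without 0 h library 1 or 2 or 18 h library 1 (0.0753 to 0.176) and Spc24 without 0 h library 1 (0.0834). A fit of only 0 and 18 h added calls for Ccnb1, Foxm1, Incenp, Bub3, Kif11, Nusap1 and Hmmr (adjusted p = 0.0136 to 0.0483). A fit of only 0 and 12 h lost those of Foxm1 (0.0526) and Prc1 (0.0717). The gap in calls between 12 and 18 h thus depended in part on fitting all 15 libraries together. Every library of the later time was above every library of 0 h in 37 genes at 12 h (14.8% of all genes), 31 at 18 h (16.3%) and 39 at 24 h (20.4%). Early progenitor markers were higher in sum at 24 h (1578 to 1622 CPM, against 1057 to 1133 CPM at 0 h), but single markers went both ways. Of 9 tested, 3 were called lower and 2 higher (Il2ra and Lyl1), with log2 fold changes from -1.11 to 1.06. Of all genes tested, 9.30% were called lower and 9.43% higher at 24 h. Double-positive markers were lower in sum (175 to 192 against 252 to 263 CPM, 1 of 5 tested called lower). Myeloid markers summed to 50.9 to 61.5 CPM at 24 h against 72.8 to 86.2 CPM at 0 h (2 of 8 tested lower, S100a8 and S100a9), and B cell markers to 8.74 to 15.7 against 20.1 to 26.9 CPM (1 of 2 lower, Ighm). Their part in the mitotic levels was not tested.

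Between neighbouring times, the step from 6 to 12 h had the most calls. All 46 fold changes were positive (49.6% of all genes), 24 genes were higher (5.54%), none was lower (5.31%) and 28 had every 12 h library above every 6 h library (11.7%). The 12 genes whose call held without any 1 library were Nuf2 (1.01 ± 0.18, adjusted p = 0.000411), Spc24 (0.93 ± 0.16, 0.000399), Birc5 (0.78 ± 0.12, 9.58e-05), Cdca3 (0.75 ± 0.12, 0.000238), Ccnb2 (0.72 ± 0.12, 0.000178), Ndc80 (0.69), Ckap2l (0.63), Kif11 (0.60), Top2a (0.57), Cdk1 (0.55), Aspm (0.54) and Mki67 (0.43). Kif4 had 0.74 ± 0.18 (adjusted p = 0.00714) and lost its call without 6 h library 2 (0.0521); Aurkb had 0.64 ± 0.17 (adjusted p = 0.0134) and lost it without 12 h library 3 or 6 h library 2 (0.07 to 0.0987). The count was 15 without 6 h library 2 and 15 without 6 h library 3. It rose to 29 without 6 h library 1, where Plk1 (adjusted p = 0.00742), Foxm1 (0.03), Bub1 (0.00902), Bub3 (0.0373) and Tpx2 (0.0081) were also called. Without 12 h library 1, Cenpa (0.00989) and Mad2l1 (0.0327) gained a call. A fit of only these 2 times called 12 of the 24, and Top2a (adjusted p = 0.0509) and Mki67 (0.092) lost their calls in it. Plk1, Foxm1, Cenpa, Bub1b, Cdc20 and Ccnb1 were not called over this step, at 0.32, 0.52, 0.31, 0.22, 0.17 and 0.11 (adjusted p = 0.0699, 0.0558, 0.0854, 0.404, 0.524 and 0.698).

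From 12 to 18 h, 43 of the 46 fold changes were negative (median -0.14), but none was called. Of all genes tested, 48.9% were positive (median -0.0046) and 0% were called lower. Among the 46, 9 had an unadjusted p under 0.05 (5.66% of all genes), and DESeq2 also called none of the 46. In 12 genes every 18 h library was below every 12 h library, as in 5.54% of all genes. The smallest p values were those of Plk1 (-0.39 ± 0.12, adjusted p = 0.57), Aurka (-0.54 ± 0.17, 0.645), Cenpf (-0.32 ± 0.10, 0.663) and Hmmr (-0.34 ± 0.12, 0.74). Cenpf was at 134, 113 and 130.3 CPM (12 h) and 97.8, 98.9 and 105 CPM (18 h), and Hmmr at 58.4, 48.6 and 62.1 CPM (12 h) and 46.4, 44.1 and 43.3 CPM (18 h). For both genes every 18 h library was below every 12 h library. From 18 to 24 h only Plk1 was called, higher by 0.62 ± 0.12 (adjusted p = 0.0112; 0.0147% of all genes called higher), with 27 genes apart upwards (10.2% of all genes). The Plk1 call was lost without 18 h library 2 (0.169) or 3 (0.0751) or 24 h library 1 (0.0919) or 3 (0.1), and by scaling to library size alone (0.069). A fit of only these 2 times called 11 of the 46, Plk1 and 10 others, Top2a, Cdk1 and Aurka among them. Over these steps Top2a had -0.13 and 0.31, Mki67 -0.0050 and 0.20, Cdk1 -0.14 and 0.32, Ccnb1 -0.011 and 0.33, Foxm1 -0.045 and 0.17, Aurkb -0.10 and 0.20, Bub1b 0.025 and 0.061, Cenpa -0.056 and -0.12, and Cdc20 -0.012 and 0.34, none of them called.

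Thymus labelled TAL1 and ProT cells at 24 h share no library, and many of the same genes were called in both. Of the 27 genes higher in TAL1 thymus 26 were higher in ProT cells at 24 h (96.3% of 27 and 70.3% of 37), 22 at 12 h (81.5% of 27 and 78.6% of 28) and 14 at 18 h (51.9% of 27 and 77.8% of 18). Of the 19 not called in thymus, 11 were higher in ProT cells at 24 h (57.9%). Among the other 11010 genes tested in both tables, 47.9% of the 234 higher in TAL1 thymus and 8.91% of the rest were higher in ProT cells at 24 h. These shares were 32.1% and 5.89% at 12 h, and 21.4% and 4.63% at 18 h. Anln was called in thymus and not in ProT cells at 24 h. Called in ProT cells at 24 h and not in thymus were 11 genes: Ccnb1, Ccnb2, Aurka, Aurkb, Bub1, Bub1b, Bub3, Nuf2, Kif2c, Kif20a and Cdc20. Of these, Ccnb2 was called in thymus without EV mouse m315 (adjusted p = 0.0384) or TAL1 mouse m319 (0.0482). Bub1b was called there without EV mouse m311 (0.0229). The tables were normalised apart, and the difference between the systems was not tested. In neither of these comparisons were Cks2, Cdc25b, Cdc25c, Cenpa, Mad2l1, Kif23, Ect2 or Pttg1 called. Cks2 was called lower in ProT cells at 18 h, as given above. Across the 46 genes the log2 fold changes of the 2 systems had Pearson's r = 0.418; genes are not independent replicates, and both axes have the errors shown in the plot of thymus against ProT fold changes.

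**Figure D5:**
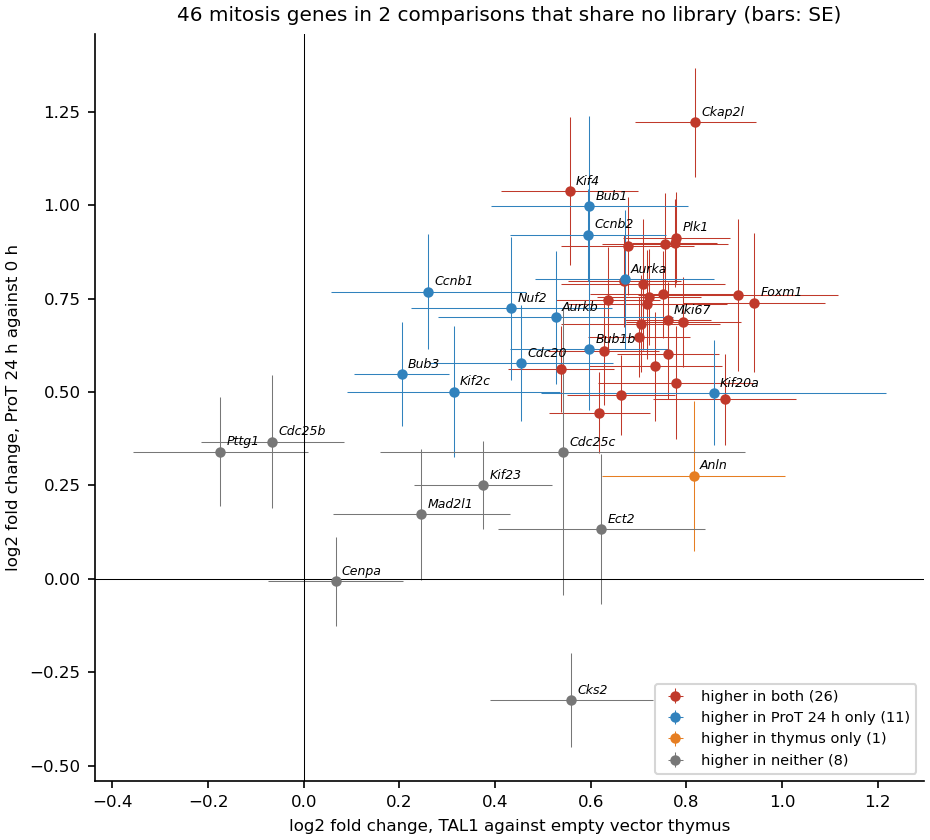
Log2 fold change of each of the 46 genes in TAL1 against EV thymus (x axis) and in ProT cells at 24 h against 0 h (y axis), with SE bars; colour gives where the gene was called. The 26 genes called in both lie in the upper right, and Cks2 is the gene with a positive thymus value and the lowest ProT value.

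Other cell-cycle genes were counted for comparison, on lists that do not hold the 46. In TAL1 thymus (2.16% of all genes higher, 2.88% lower) and in ProT cells at 24 h (9.43% higher, 9.30% lower), the numbers higher were 14 of 29 tested and 17 of 30 for G1/S and DNA replication, 8 of 20 and 9 of 20 for condensin and cohesin, and 10 of 27 and 10 of 27 for other spindle and cytokinesis genes, with none lower. Replication genes were led in thymus by Ccne2, cyclin E2 (0.99), and Rrm2, a subunit of ribonucleotide reductase (0.95), and in ProT cells by Cdc6, which loads the replicative helicase (0.97), and Rrm2 (0.79). Condensin and cohesin genes were led by Ncapg2 (0.87) and Sgol1 (0.81), then by Ncapd2 (0.78) and Smc2 (0.70), and other spindle genes by Pbk (0.86) and Bora (0.72), then by Melk (1.19) and Pbk (0.98). Fewer were called among inner kinetochore genes (4 of 23, led by Cenpm 0.88 and Cenpk 0.77; 6 of 23, led by Cenpn 1.02 and Nsl1 0.93) and subunits and regulators of the anaphase-promoting complex (2 of 17, Fbxo5 0.66 and Anapc5 0.44; 3 of 17, led by Fbxo5 0.63 and Fzr1 0.55). Medians were 0.58 and 0.44 for replication, 0.41 and 0.35 for condensin and cohesin, 0.61 and 0.38 for other spindle genes, 0.41 and 0.25 for inner kinetochore and 0.12 and 0.28 for the anaphase-promoting complex.

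Among regulators few genes were called, and the shares lower in ProT cells were close to that of all genes (9.30%). Of the switch kinases and phosphatases around CDK1, Ccnf alone was higher in thymus (0.90; 1 of 13 tested), and in ProT cells 2 of 14 were higher (Ccnf 0.58 and Cks1b 0.51) and Ensa, an inhibitor of the phosphatase that opposes CDK1, was lower (-0.54). Of the RB, E2F and DREAM genes, 3 of 19 were higher in thymus, led by Mybl1 (1.253) and E2f8 (0.90). In ProT cells 3 of 20 were higher, led by E2f2 (1.15) and E2f8 (0.81), and 2 were lower, Rb1 (-0.97), which encodes the retinoblastoma protein, and Lin9 (-0.43), a subunit of DREAM. The Lin9 call was lost without any 1 of the 6 libraries and by DESeq2 (adjusted p = 0.0901). It was also lost by scaling to library size alone (0.279), without the filter (0.112) and with counts thinned to the shallowest library (0.154). No gene of these 7 lists was called between TAL1AKT and AKT mice. Without 1 library the count of the replication list in thymus fell to 6 (without EV mouse m315 or TAL1 mouse m318) or 9 (EV mouse m312). That of condensin and cohesin fell to 4 (TAL1 mouse m318) or 5 (m317), and of other spindle genes to 4 (TAL1 mouse m318) or 5 (EV mouse m312 or TAL1 mouse m317). The inner kinetochore count was 1 without TAL1 mouse m318 and 2 without any EV mouse or TAL1 mouse m317. The anaphase-promoting count was 0 without TAL1 mouse m319 and 1 without EV mouse m312 or m315 or TAL1 mouse m317 or m318. In ProT cells the replication count fell to 10 or 11 (without 0 h library 2, or without 0 h library 1 or 24 h library 2), the inner kinetochore count to 3 and the anaphase-promoting count to 1 (0 h library 2). The count of other spindle genes fell to 6 (24 h library 2), and that of RB, E2F and DREAM genes to 3 without 0 h library 1 or 3 or any 24 h library. Of the genes named, those lost in thymus (adjusted p in parentheses) were Cenpm without EV mouse m311, m312 or m315 or TAL1 mouse m317 or m318 (0.0561 to 0.163), Cenpk without EV mouse m311 or m312 or TAL1 mouse m317 or m318 (0.0702 to 0.161) and Pbk without EV mouse m312 or m315 or TAL1 mouse m317 or m318 (0.0612 to 0.0934). Also lost were Bora without EV mouse m311 or m312 or TAL1 mouse m317, m318 or m319 (0.0726 to 0.192), Fbxo5 without EV mouse m312 or TAL1 mouse m318 or m319 (0.0504 to 0.0921), Anapc5 without EV mouse m315 or TAL1 mouse m317 or m319 (0.0579 to 0.108), Ccnf without EV mouse m315 or TAL1 mouse m318 (0.056 to 0.0625) and Mybl1 without EV mouse m312 (0.0504). Those lost in ProT cells were Nsl1 without 0 h library 2 or 3 (0.0556 to 0.0619), Fzr1 without 0 h library 2 (0.0554) and Ccnf without 0 h library 1 or 2 or 24 h library 1 or 3 (0.0983 to 0.164).

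The exons of 14 of the 46 overlap those of another gene, 12 on the opposite strand and 2 (Foxm1 and Top2a) on the same strand alone, which leaves their counts uncertain, since the sources used here do not give the strand setting of the counting. In 7 of them the share of exon bases concerned was at least 7%: 29.3% for Kif20a (Cdc23), 22.8% for Ube2c (Tnnc2), 15.1% for Kif4 (Pdzd11), 12.7% for Cdc25c (Gm3550), 12.5% for Ccna2 (Exosc9), 11.1% for Prc1 (Rccd1) and 7.10% for Plk1 (Gm44985), each on the opposite strand. The other 5 on the opposite strand were Ckap2l (5.8%), Cdca8 (4.5%), Nusap1 (4.2%), Cdc20 (2.8%) and Cdc25b (2.5%).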

How the data were processed

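RNA from 12 mouse thymi and 15 ProT libraries was sequenced on Illumina instruments. The authors deposited 3 tables of raw read counts per gene, made with FastQC, HISAT2, SAMtools and HTSeq on mm10 or GRCm38 per the submitters' processing notes. Versions, strand setting and annotation are not given in the sources used here. HTSeq's summary lines, kept out of library totals and tests, held 17.3% to 33.0% (no feature), 3.33% to 6.09% (ambiguous), 8.12% to 18.8% (not aligned) and 10.3% to 15.4% (not unique) of the counts in the EV and ProT tables. The no-feature share was 32.97% to 33.02% in EV mice and 29.8% to 30.3% in TAL1 mice. In ProT libraries it was 21.1% to 22.2% at 0 h and 17.8% to 18.4% at 24 h. Its part in the comparisons was not tested. In both the EV and the ProT table, 27 symbols turned into dates by a spreadsheet were restored. All 27 columns were matched to samples by the labels, and 0 were left unused.

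The test was edgeR 4.0.16's quasi-likelihood F test in R 4.3.3 (TMM factors, filterByExpr at its defaults, Benjamini-Hochberg over all genes tested, threshold 0.05). EV with TAL1 mice and AKT with TAL1AKT mice were fitted apart, all 15 ProT libraries together, and the contrast of the TAL1 effects over 12 mice. Each SE was derived from a gene's log2 fold change and its F statistic. The scripts were tested on simulated data. No pair of replicates agreed within sampling noise (chi-square per degree of freedom 2.39 to 37.5). The biological coefficient of variation was 22.0% in EV and TAL1 mice, 35.0% in AKT and TAL1AKT mice and 11.6% in ProT libraries. Alternatives were DESeq2 1.42.0, its size factors in edgeR, library size alone, no filter, a replicate block, only the 2 times compared, and each library left out; counts thinned to the shallowest library were added after seeing the data.

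The 46 genes, the other lists and the tests were chosen with earlier results of these data known. Full statistics went to the called genes with the largest absolute log2 fold change, up to 8 in each direction, or, where none was called, the 4 with the smallest p; Mki67, Top2a, Ccnb1, Cdk1, Plk1, Aurkb, Bub1b, Cenpa, Cdc20 and Foxm1 were given in every comparison, and from other lists the 2 called genes with the largest change in each direction. Gene positions and exon lengths came from GENCODE M21 (GRCm38). Mature T cell markers in ProT cells are not reported here.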

Additional observations from a re-analysis of the deposited data

How the results depend on the processing

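Over all alternatives, 6854 values of single mitotic genes were recomputed: 0 called values changed sign, 243 calls were lost, 82 were gained and 196 values without a call changed sign. In TAL1 against EV thymus 26 to 32 genes were called under the other scalings, without the filter and by DESeq2, and 28 after thinning to the shallowest library; the count was 18 to 23 with 1 mouse left out. TAL1AKT against AKT mice had 0 calls of the 46 under each alternative (0 to 0 with 1 mouse left out), although over all genes DESeq2 called 39 higher and 27 lower and the fit without a filter 22 higher and 8 lower, against 0. The contrast of the TAL1 effects had 0 to 1, the 1 without AKT mouse m124; over all genes it had 168 calls by DESeq2 and 58 without a filter, against 18, of which 70.8%, 91.4% and 100% were higher.

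In ProT cells, leaving out 1 library gave 0 to 0 calls (6 h), 23 to 28 (12 h), 9 to 17 (18 h) and 31 to 36 (24 h) against 0 h. The steps gave 15 to 29 from 6 to 12 h, 0 to 0 from 12 to 18 h, 0 to 1 from 18 to 24 h and 29 to 37 over all times. Fits of only the 2 times compared called 12 genes from 6 to 12 h (24 with all 15 libraries) and 11 from 18 to 24 h (against 1). Scaling by library size alone called 0 from 18 to 24 h. It shifted the median log2 fold change of all genes to 0.18, 0.13 and 0.17 at 12, 18 and 24 h and raised the share of calls that were higher from 52.7%, 55.5% and 50.3% to 85.8%, 82.0% and 80.5%. From 6 to 12 h that share went from 51.0% to 70.2%. Mitotic genes called were then 39, 25 and 40. Cks2 at 18 h (adjusted p = 0.157) and Ensa (0.0913) and Lin9 (0.279) at 24 h were no longer called lower. In the other lists at 24 h, library size alone gave 10 inner kinetochore, 9 anaphase-promoting, 17 other spindle and 5 switch genes (against 6, 3, 10 and 3). Thinning gave 6 other spindle genes, and only the 2 times compared 5 switch genes. DESeq2, no filter and thinning each gave 3 RB, E2F and DREAM genes (against 5). Without a filter, 16 other spindle genes were called in TAL1 thymus (against 10).

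With the ProT replicate number as a block (replicate block), the counts were 0, 28, 18 and 37 at 6, 12, 18 and 24 h, 24, 0 and 1 for the steps between times, and 35 over all times, against 0, 28, 19 and 37, 24, 0 and 1, and 35 without it. Nuf2 at 18 h (adjusted p = 0.0566), Mybl2 over all times (0.0544) and Lin9 at 24 h (0.0535) lost their call, Ttk over all times gained one (0.0436), and no other call of a gene named here changed. The numbers did not pair the libraries: deviations of same-numbered libraries correlated at -0.143 to 0.213 over 30 pairs, 1 above 0.1, and 3 of 15 libraries correlated best with their own number. The thymus groups share no numbers, so no paired fit was made there. Depth limits Cdc25c, with as few as 6 counts in a library, more than the other 45 genes, whose lowest count was 15 (Aurkb). The cause of the changed values was not tested.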
